A study of Mus musculus with 4 samples.

Results

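The genes described here encode the proteins of the cytosolic ribosome, measured on microarrays of mouse brain after a stroke-like occlusion. The group was chosen with earlier results of these data known, and its members were then set by a rule on names. It took every non-control probe whose gene name on the array begins with Rpl or Rps followed by a digit, by a (Rpsa) or by p0 to p2 (Rplp0). The S6 kinase genes (Rps6k) and names marked as pseudogenes were left out. The rule found 82 genes of 27671 gene names, with 137 probes, of which 133 passed the filter on dim probes. The member Rps19bp1 encodes a nucleolar protein that binds Rps19 and is no part of the ribosome itself. The samples came from male C57BL/6J mice of 8 to 12 weeks. The PMCAO arm had permanent middle cerebral artery occlusion, in which a nylon filament placed through the common carotid artery blocks blood flow for good, and the sham arm had the neck vessels exposed without a filament. Every mouse of both arms also received saline into the brain ventricle, and was killed for brain dissection after 6 h or 24 h, with 3 mice in each group. The series' design text says that the contralateral hemisphere went onto the arrays, whereas the array labels give only brain, so the hemisphere is not settled here. Each of the 4 two-colour arrays carried PMCAO and sham RNA of the same time. At each time sample 1 had PMCAO RNA in Cy5 and sample 2 had it in Cy3. Whether RNA was pooled over mice, and whether samples 1 and 2 held separate RNA or the same RNA with the dyes exchanged, is not stated. The p-values below therefore measure only the spread between arrays, which may be technical.

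Each cytosolic ribosome has a small subunit, which reads the mRNA, and a large subunit, which joins the amino acids. Their proteins (Rps for the small and Rpl for the large subunit) are made in matched amounts, and their mRNAs are among the most abundant of a cell. Most of these mRNAs begin with a terminal oligopyrimidine tract, a cytosine followed by an unbroken run of pyrimidines, through which the mTOR kinase pathway controls their translation and stability. In brain, ribosomal protein mRNAs are present in every cell type, and translation falls sharply in tissue that loses its blood supply.

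The tract is the sequence feature that the mRNAs are best known to share, so it is shown for members whose responses differed. Of the 82 members, 62 had a promoter window (250 bases before to 50 after an annotated start) in the RefSeq table of GRCm38.p6. A tract of at least 5 bases (C followed by at least 4 bases, each C or T) began exactly at the annotated start in 13 of the 73 windows of these members, 17.8%, against 2.51% of all 32851 windows. The stretches below run from 40 bases before the start to base 20 of the transcript, 5′ to 3′ on the gene's strand, and the capitals mark a tract that begins at the annotated start. They lie at chr4:86857348-86857407 (Rps6, minus strand), chr17:33955646-33955705 (Rps18, minus), chr3:90213629-90213688 (Rps27, minus), chr7:141447611-141447670 (Rplp2, plus), chr9:66946046-66946105 (Rps27l, plus) and chr7:109519155-109519214 (Rpl27a, plus).
Rps6: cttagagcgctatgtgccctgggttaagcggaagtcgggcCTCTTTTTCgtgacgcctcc
Rps18: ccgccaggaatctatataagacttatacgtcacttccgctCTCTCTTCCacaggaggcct
Rps27: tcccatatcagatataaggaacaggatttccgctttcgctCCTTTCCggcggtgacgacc
Rplp2: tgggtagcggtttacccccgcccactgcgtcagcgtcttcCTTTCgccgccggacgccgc
Rps27l: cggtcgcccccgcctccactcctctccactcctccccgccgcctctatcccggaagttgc
Rpl27a: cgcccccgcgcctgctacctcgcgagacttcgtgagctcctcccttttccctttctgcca
The tract was 9 bases long in Rps6 and Rps18, 7 in Rps27 and 5 in Rplp2. Rps27l and Rpl27a, the members with the highest and the lowest log2 ratio at 24 h, had none that began at the annotated start, which can lie a few bases from the true one. In Rpl27a the base at that start is a T inside an unbroken run of pyrimidines. Only the rule of a leading C left this run uncounted, so Rpl27a cannot be said to lack a tract. Other motifs were searched on both strands of the 300-base windows. The letters CCGGAAG, the core bound by Ets family factors, were in 34.2% of the member windows and 8.86% of all windows, ATGGCG in 27.4% and 8.93%, and CTCTTTC, which can overlap the tract, in 28.8% and 8.16%. These matches describe the letters of the windows and show no binding.

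Probes are 60 bases long, and their own sequences show what was measured. The array design carries the stalk protein Rplp0 under its own name with 1 probe, placed at chr8:101459316-101459375 (minus strand) of the mm7 build, and under the older name Arbp with probes on chromosome 5, one of them at chr5:114782273-114782332 (plus). The probe of Rps6 lies at chr4:86259708-86259899 (minus), across an intron, and that of Rpl3 at chr15:80164240-80164814 (minus), also across an intron. The probe of its paralog Rpl3l lies at chr17:22917799-22918067 (plus), across an intron as well.
Rplp0: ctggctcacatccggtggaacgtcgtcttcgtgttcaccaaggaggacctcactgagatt
Arbp: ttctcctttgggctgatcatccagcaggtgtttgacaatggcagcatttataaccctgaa
Rps6: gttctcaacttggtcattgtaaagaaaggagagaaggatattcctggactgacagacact
Rpl3: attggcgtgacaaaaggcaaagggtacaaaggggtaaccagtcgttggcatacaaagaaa
Rpl3l: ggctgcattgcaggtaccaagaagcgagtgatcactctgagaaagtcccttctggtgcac
Each of these probes can be read without a stop codon in at least 1 frame. Many ribosomal protein genes have processed copies elsewhere in the genome, and 24 of the 82 members had a measuring probe that the design assigns to more than 1 RefSeq transcript, so those signals may be shared between near-identical copies.

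The arrays came from 1 slide and 1 scan. Of 19128 genes tested in limma, 156 rose and 7 fell at 6 h, and 1499 rose and 864 fell at 24 h. All 6 neuronal, 5 astrocyte and 5 oligodendrocyte markers passed the filter on dim probes. At 24 h the neuronal markers had a median log2 ratio of -0.22, with 1 of 6 above 0 and none past the test, the astrocyte markers -0.05 (1 rose, Aldh1l1 at 0.54) and the oligodendrocyte markers 0.02 with none past it. With the dye orientation as a block (described with the members below), 20.5% of all genes rose and 19.3% fell at 24 h. In that fit 3 neuronal markers fell, 1 astrocyte marker rose and 2 fell, and 1 oligodendrocyte marker rose. The marker list that moved most belonged to neutrophils and monocytes. Their 4 tested genes of 5 listed had log2 ratios of 0.82 to 2.61 at 6 h (3 rose) and 2.58 to 5.84 at 24 h (4 rose). Of 6 microglia and macrophage markers, P2ry12 (-1.72) and Tmem119 (-0.41) fell and Cd68 (1.11) rose at 24 h. Of 4 endothelial markers, Pecam1 rose (0.93), and of 2 red blood cell markers, Hba-a1 (0.52). Both lymphocyte markers tested, of 5 listed, were below 0 and did not pass. With the block, 1 microglia and macrophage marker rose and 4 fell at 24 h. Of the endothelial markers 2 then rose and 1 fell, and 2 red blood cell markers rose. The part of such cell type shifts in the values below was not tested.

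At 6 h the ribosomal protein genes stood close to the sham level. In limma no member passed an adjusted p of 0.05 in either direction, against 0.816% of all genes higher and 0.0366% lower. Without adjustment, 1 member, Rpl7l1, had a p below 0.05 and was lower, and none was higher, against 2.58% and 6.16% of all genes. The median log2 ratio of PMCAO over sham over the 82 members was 0.03 (a 1.02-fold level), beside a median of -0.01 over all genes tested. The mean ratio was above 0 in 60 of the 82 members, against 48.1% of all genes, and members ranged from -0.21 to 0.14. Those counts moved with the scaling and with 1 array: with plain median centring 81 members were above 0 (median 0.12), and without sample 1 only 35 were (median -0.043). Both arrays were above 0 in 16 members and both below 0 in 5, against 28.3% and 28% of all genes. In these bulk samples, a different number of cells of one type and a different amount of RNA per cell cannot be told apart.

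At 24 h nearly all ribosomal protein genes had slightly more signal in PMCAO than in sham RNA. The median log2 ratio was 0.22, a 1.17-fold level, with quartiles of 0.16 and 0.26, while the median over all genes was 0.00 with quartiles of -0.15 and 0.16. The ratio was above 0 in 76 of the 82 members, against 50.1% of all genes, and both arrays were above 0 in 53 members, 64.6%, against 31% of all genes, and both below 0 in 4, against 30.6%. Without sample 1 of 24 h the member median was 0.14, with 56 members above 0, and without sample 2 it was 0.25, with 75 above 0. The 6 neuronal markers had a median of -0.22, with 1 above 0. None passed the test without the block, and 3 fell with it. Any relation of these markers to the members was not tested. In limma, 1 member, Rps27l, rose past an adjusted p of 0.05 and none fell, while 7.84% of all genes rose and 4.52% fell. The share of members called, 1.22%, was thus below the background. Without adjustment, 26 members had a p below 0.05 and were higher, 31.7% against 15.5% of all genes, and 1 was lower, against 13.3%. With plain median centring of each array in place of loess no member was called, 57 of the 82 members were above 0, and the member median at 24 h was 0.036 beside -0.094 over all genes.

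**Figure D1:**
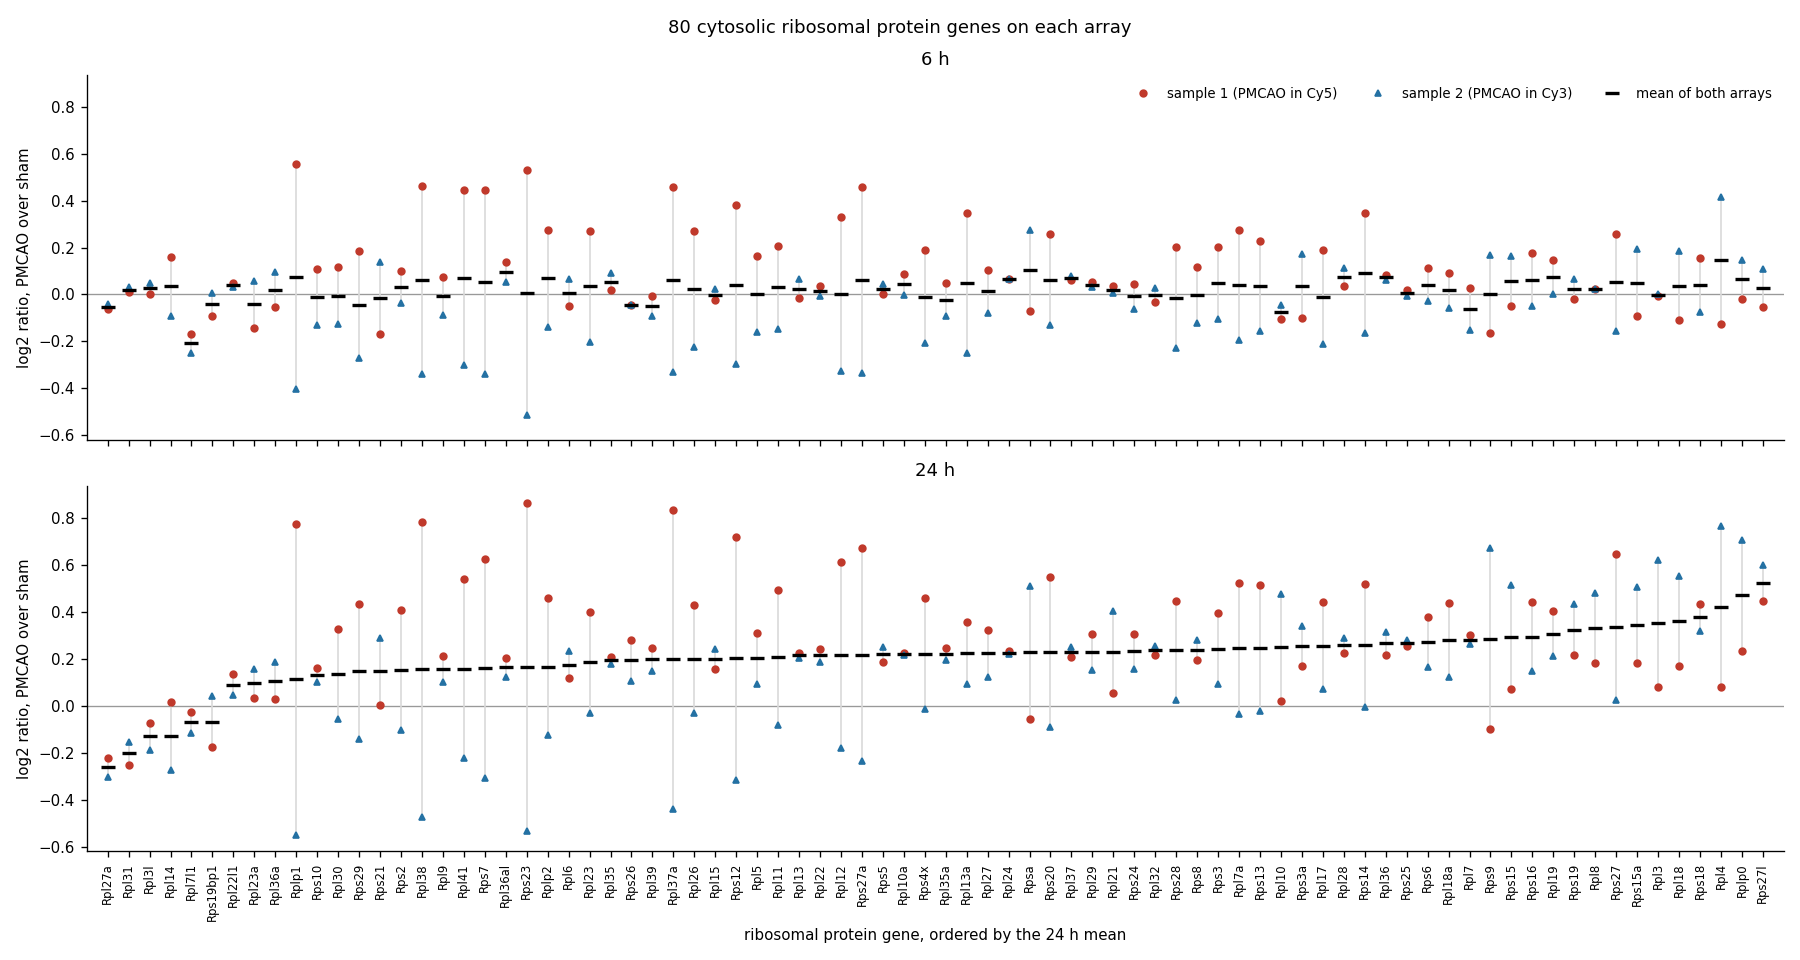
log2 ratio of PMCAO over sham (y axis) of 80 of the 82 genes (x axis, ordered by the 24 h mean) at 6 h (top) and 24 h (bottom). Circles are sample 1 (PMCAO in Cy5), triangles sample 2 (PMCAO in Cy3), and bars the mean of both. At 24 h the mean is above 0 in all but 6 genes, while circles and triangles of the same gene often lie on opposite sides of 0.

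The spread between arrays followed the dye orientation. Rps23, a protein of the decoding centre, had log2 ratios of 0.53 and -0.52 in samples 1 and 2 at 6 h, and 0.87 and -0.53 at 24 h. For the acidic stalk protein Rplp1 the 6 h values were 0.56 and -0.40, and the 24 h values 0.78 and -0.55. In both genes the array with PMCAO in Cy5 was high and the array with PMCAO in Cy3 was low at both times, so their means of 0.17 and 0.11 at 24 h rest on values of opposite sign. Over the 82 members, arrays of the same time and opposite orientation had a Pearson correlation of -0.84 at 6 h and -0.53 at 24 h. Arrays of the same orientation at different times had 0.86 (sample 1) and 0.81 (sample 2). Over all genes the same 4 correlations were 0.58, 0.67, 0.61 and 0.63. These are descriptions across genes, which share arrays and probe brightness and are not independent.

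Arrays of opposite sign at 24 h lay mostly among the brightest probes. There were 25 such members, 19 of the 33 with a brightness of at least 16 and 6 of the other 49. At 6 h, when ratios were near 0, 61 members had opposite signs, 30 of those 33 and 31 of the other 49. The median distance between the 24 h arrays was 0.52 in the brightest members and 0.15 in the others, and 23 of the 82 members had arrays within 0.1 of each other. The member probes had a median log2 brightness (A, the mean of both channels) of 15.6 over the 4 arrays, above 98.5% of the genes tested, and all 82 were well above background in both channels of all 4 arrays. The 33 members with a brightness of at least 16 had median log2 ratios of 0.46 and -0.02 in samples 1 and 2 at 24 h. The 138 other genes in that range had 0.27 and -0.34, which is the same direction of the dye difference. The mean of both orientations separated them: 0.22 for these members and -0.04 for the other genes. Between a brightness of 14 and 15, where the dye difference was small, the 16 members had a median of 0.23 and the 732 other genes 0.00. From 15 to 16, the 18 members had 0.23 and the 342 other genes -0.02. All 18 members in the latter range were above 0, as were 45.9% of the other genes. The comparison by brightness was added after the values had been seen.

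**Figure D2:**
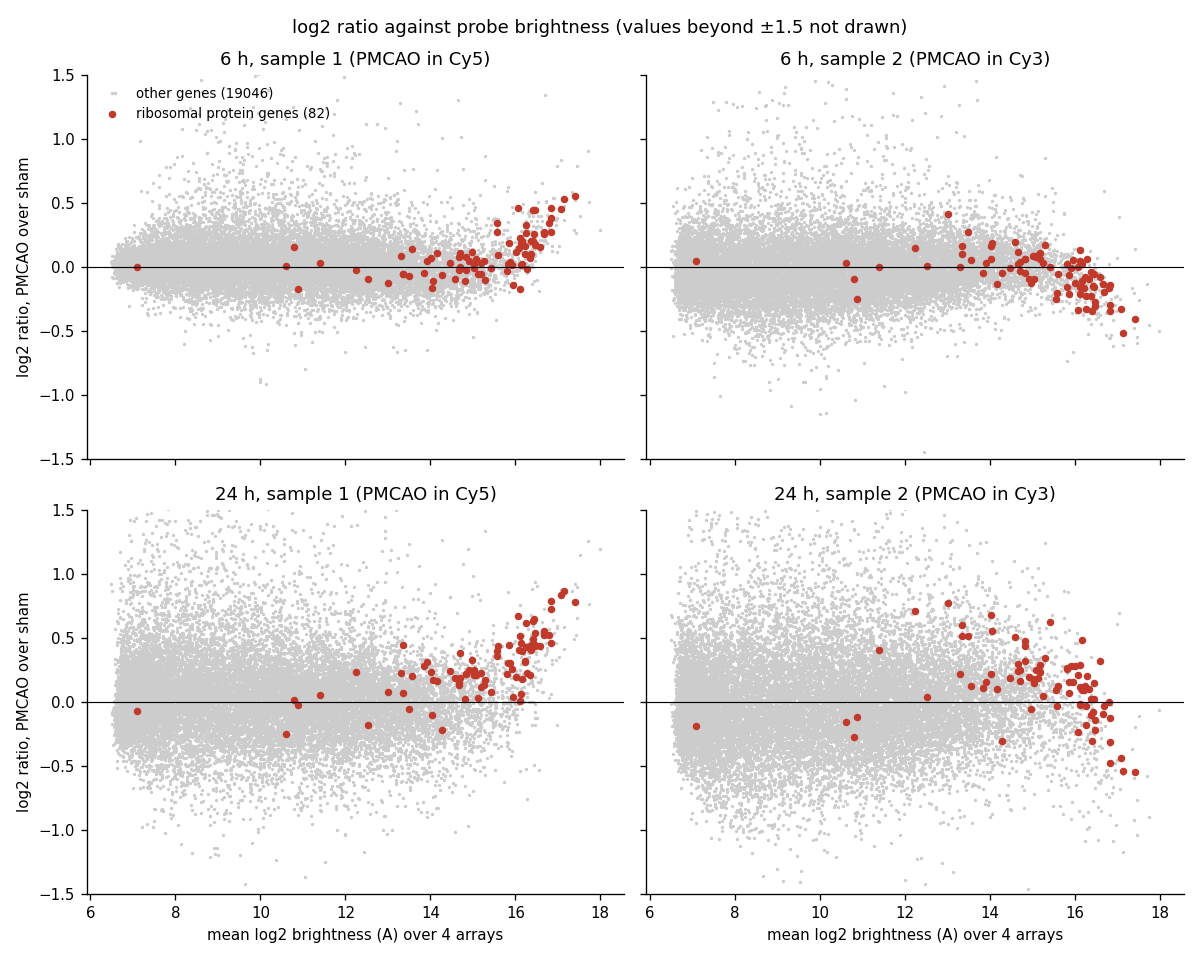
log2 ratio of PMCAO over sham (y axis) against mean log2 probe brightness over the 4 arrays (x axis), one panel per array, for the 82 ribosomal protein genes (red) and the other genes tested (grey). Above a brightness of 16, points bend up with PMCAO in Cy5 and down with PMCAO in Cy3, in members and other genes alike, and at 24 h most members lie above the middle of the grey points.

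Since the sample number is also the dye orientation, limma was also run with it as a block, which leaves 1 residual degree of freedom. The deviations of same-numbered arrays from their time means correlated at 0.72 over all genes. With the block, 56 of the 82 members (68.3%) rose at 24 h and 2 fell, Rpl27a and Rpl31, against 20.5% of all genes higher and 19.3% lower. At 6 h the blocked fit called no member, against 5.91% of all genes higher and 2.97% lower. The means are the same in both fits, and only their estimated errors differ. Leaving out a 24 h array gave 13 members higher and 4 lower without sample 1, beside 15.3% of all genes higher and 14.8% lower, so the members' share of 13 was near the background. Without sample 2 it gave 30 higher and none lower, beside 13.0% and 7.94% of all genes. In those refits the 24 h value rests on 1 array, whose own spread is taken from the 6 h arrays, so the dye difference is part of it.

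The ratio at 24 h exceeded that at 6 h in 77 of the 82 members, with a median difference of 0.19 on the log2 scale beside 0.01 over all genes. Within each dye orientation the median difference was 0.20 (sample 1) and 0.18 (sample 2), and the 24 h array was above the 6 h array in both orientations in 71 members, 86.6% against 36.4% of all genes. Both 24 h arrays were above both 6 h arrays in 36 members, 43.9% against 22.3% of all genes, and both below them in 3, against 20.6%. The test of the difference in limma called no member, against 1.29% of all genes higher and 0.298% lower, and without adjustment 2 members, Rps27l and Rpl7, had a p below 0.05. Both were higher, and the shares of all genes were 7.67% higher and 6.51% lower. With the dye orientation as a block it called 5 members higher (Rps27l, Rplp0, Rpl7, Rps18 and Rpl18) and none lower, against 8.81% and 7.99% of all genes. The direction of the median difference turned with plain median centring, where it was -0.094 for the members and -0.10 for all genes, so under that scaling the members did not stand apart from the array as a whole.

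All 31 small-subunit proteins were above 0 at 24 h, with a median of 0.23, and the highest was Rps18 at 0.38. Rps18, which sits in the head of the small subunit, had log2 ratios in samples 1 and 2 of 0.16 and -0.08 at 6 h, and its 24 h values were 0.44 and 0.32. Its 24 h mean was 0.38 ± 0.10 (SE, 2 arrays), with an adjusted p of 0.064 in limma and 0.0016 with the block. Both 24 h values were above both 6 h values. Rps6, the substrate of the S6 kinases, had 0.11 and -0.03 at 6 h and 0.38 and 0.17 at 24 h. Its 24 h mean of 0.27 ± 0.10 had an adjusted p of 0.13 in limma and 0.0090 with the block. Rpsa, also known as the laminin receptor, had -0.07 and 0.27 at 6 h and -0.05 and 0.51 at 24 h, so here the array with PMCAO in Cy3 was the high one. Its 24 h mean of 0.23 had an adjusted p of 0.42 in limma and 0.027 with the block, and it turned to -0.05 without sample 2. None of these 3 passed the test without the block.

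Among the 42 large-subunit proteins other than the stalk and the paralogs, 39 were above 0 at 24 h, with a median of 0.22. The highest was Rpl4, which lines the exit tunnel of the ribosome, with -0.13 and 0.42 at 6 h and 0.08 and 0.77 at 24 h. Its 24 h mean of 0.42 ± 0.20 (adjusted p = 0.24 in limma, 0.00088 with the block) came largely from sample 2. Rpl10, one of the last proteins to join the large subunit, had -0.11 and -0.04 at 6 h and 0.02 and 0.48 at 24 h (adjusted p = 0.26 in limma, 0.031 with the block). Rpl13a, often used as a reference gene in PCR, had 0.35 and -0.25 at 6 h and 0.36 and 0.09 at 24 h, and its 24 h mean was 0.22 ± 0.16 (adjusted p = 0.43 in limma, 0.040 with the block).

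The 3 stalk proteins, which recruit translation factors to the large subunit, had 24 h means of 0.47 (Rplp0), 0.17 (Rplp2) and 0.11 (Rplp1). Rplp0, the base of the stalk, had -0.02 and 0.15 at 6 h and 0.23 and 0.71 at 24 h. Its mean at 24 h was 0.47 ± 0.13, a 1.39-fold level, with an adjusted p of 0.082 in limma and 0.00080 with the block. The design assigns this probe to no RefSeq transcript and places it on another chromosome than the Arbp probes, which it assigns to RefSeq transcripts of Rplp0, so the value may be that of a copy. The brighter Arbp probe had 0.73 and 0.07 at 24 h, a mean of 0.40 ± 0.17 that did not pass (adjusted p = 0.21 over all probes tested). The dimmer one, printed above, had 0.09 and -0.01 at 6 h and 0.38 and 0.45 at 24 h, a mean of 0.42 ± 0.08 with an adjusted p of 0.037 over all probes. Rplp2 had 0.28 and -0.14 at 6 h and 0.46 and -0.12 at 24 h, a 24 h mean of 0.17 that, like that of Rplp1, lay within the dye difference.

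There were 5 paralogs that share a name with another member, and their 24 h means ranged from -0.13 to 0.52. Rps27l, a paralog of Rps27 and a known target of p53, had -0.05 and 0.11 at 6 h and 0.45 and 0.60 at 24 h. It rose at 24 h, with a mean of 0.52 ± 0.09 (a 1.44-fold level, adjusted p = 0.023 in limma and 0.00019 with the block). Both 24 h arrays were above both 6 h arrays and above 0, with no overlap. The adjusted p was 0.067 with the scanner software's processed signals and 1.00 with plain median centring and in the other alternatives it lay between 0.00019 and 0.033. The parent gene Rps27 had 0.26 and -0.16 at 6 h and 0.65 and 0.02 at 24 h, a mean of 0.34 ± 0.18 (adjusted p = 0.28 in limma, 0.0040 with the block).

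Rpl3l, the form of Rpl3 used in striated muscle, had the dimmest of the probes that stood for a member, at a brightness of 7.09. Its 24 h ratio was -0.13, from -0.07 and -0.19. Rpl3 had 0.08 and 0.62 at 24 h, a mean of 0.35 ± 0.14 (adjusted p = 0.17 in limma, 0.011 with the block). Rpl7l1 was the lowest member at 6 h, with -0.17 and -0.25 (mean -0.21), and had -0.03 and -0.11 at 24 h. Its other, dimmer probe had 0.02 and 0.06 at 6 h and 0.07 and 0.29 at 24 h. Rpl7 had 0.03 and -0.15 at 6 h and 0.30 and 0.26 at 24 h (adjusted p = 0.10 in limma, 0.0083 with the block). Rpl22l1 had 0.13 and 0.05 at 24 h. Its parent Rpl22 had 0.24 and 0.19 then (adjusted p = 0.15 in limma, 0.025 with the block). Rpl36al had 0.21 and 0.12 beside 0.03 and 0.19 of Rpl36a. Differences between a paralog and its parent were not tested.

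**Figure D3:**
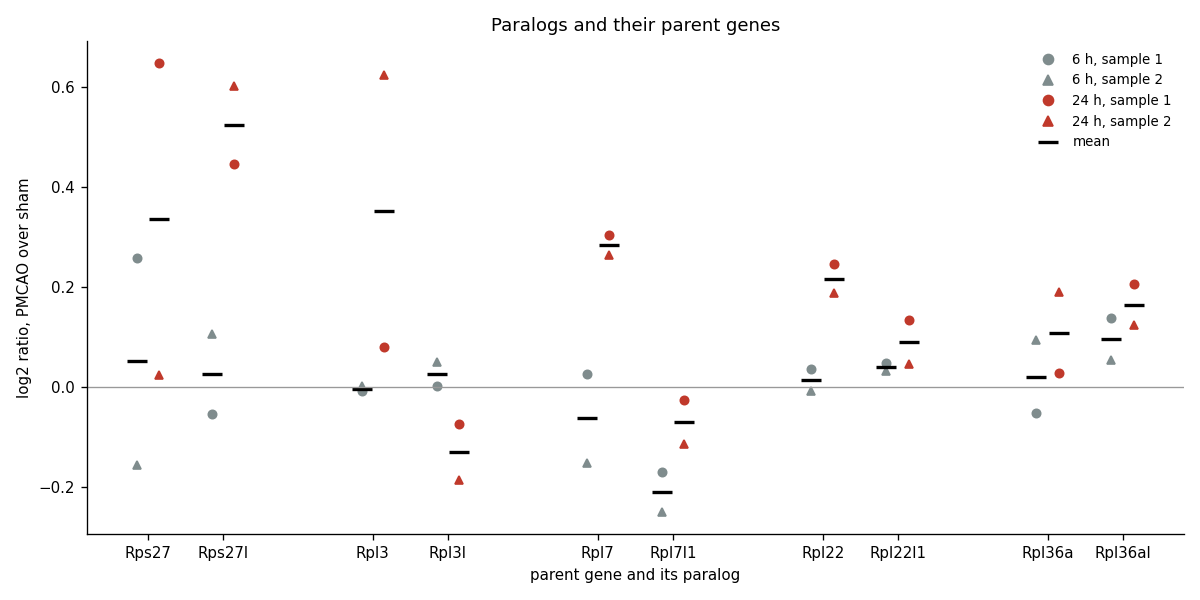
log2 ratio of PMCAO over sham (y axis) of 5 parent genes and their paralogs (x axis) on each array. Grey is 6 h, red 24 h, circles sample 1, triangles sample 2, and bars the means. Both 24 h values of Rps27l (0.45 and 0.60) lie above its 6 h values, while those of Rpl3l and Rpl7l1 lie below 0.

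The 6 members below 0 at 24 h were Rpl27a, Rpl31, Rpl3l, Rpl14, Rpl7l1 and Rps19bp1. Rpl27a, a protein of the large subunit, had -0.06 and -0.04 at 6 h and -0.22 and -0.30 at 24 h. Its 24 h mean was -0.26 ± 0.08, a 0.834-fold level, with an adjusted p of 0.10 in limma and 0.011 with the block. Both arrays of this probe were low at 24 h, without the dye difference of the brightest members. The other probe of Rpl27a, a dim one at a brightness of 7.74, had 0.14 and 0.11 at 24 h, on the other side of 0. Rpl31, which sits at the exit of the tunnel, had 0.01 and 0.03 at 6 h and -0.25 and -0.15 at 24 h, with a mean of -0.20 ± 0.08 (adjusted p = 0.18 in limma, 0.035 with the block). Its other probe had -0.08 and -0.38 at 24 h, on the same side of 0. Rpl14 had 0.02 and -0.27 at 24 h, and Rps19bp1 had -0.18 and 0.04. Of the 5 members with a brightness under 12, 4 were in this low group (Rpl31, Rpl3l, Rpl14 and Rpl7l1). The fifth, Rpl21, had a ratio of 0.23 (adjusted p = 0.23 in limma, 0.041 with the block). For Rpl7l1 and Rpl21 the side depended on the probe. Their other, dimmer probes had 24 h means of 0.18 (Rpl7l1) and -0.07 (Rpl21). The 10 members with a brightness of 12 to 14 had a median of 0.23.

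Probes of the same gene mostly gave like ratios at 24 h. Of the 41 members with several probes that passed the filter, 28 had probes within 0.15 of each other on the log2 scale. In 30 all probes were above 0, and in 10 the probes lay on both sides of 0. The 4 probes of Rpl29 had means of 0.23, 0.21, 0.25 and 0.24 (adjusted p of the gene = 0.15 in limma, 0.022 with the block), and the 3 probes of Rpl7 had 0.28, 0.28 and 0.27. Of the 108 probes with a brightness of at least 12, 106 were above 0, from -0.26 to 0.52. The 17 probes under 10 ranged more widely, from -0.34 to 0.77, with 9 above 0.

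The genes whose probes differed most were Rps6, Rps12 and Rpsa. A dim probe of Rps6 was designed to a cDNA clone downstream of the gene, at chr4:86241021-86241080 (mm7). It had 0.29 and 0.16 at 6 h and 0.99 and 0.55 at 24 h, a mean of 0.77 ± 0.13 with an adjusted p of 0.022 over all probes, against 0.27 for the bright probe. A dim probe of Rps12, also to a cDNA clone, had 0.45 and 0.75 at 6 h and 0.65 and 0.74 at 24 h. Its mean was 0.69 ± 0.10 (adjusted p = 0.017), whereas the bright probe had 0.72 and -0.32. The dim probe of Rpsa had -0.38 and -0.31 at 24 h, a mean of -0.34 ± 0.08 (adjusted p = 0.057), against 0.23 for the bright one. In Rps12 and Rpsa the 24 h arrays lay closer together on the dim probe than on the bright one, and in Rps6 farther apart. Of the 133 member probes that passed the filter, only 3 passed the test at 24 h. They were the dim probes of Rps6 and Rps12 and the probe of Rps27l, all higher. Counted by gene, 7.84% of all genes rose and 4.52% fell, and the share over all probes is not given here.

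Genes next to the ribosomal proteins in the same process were set beside them. Counts of genes that rose or fell in these lists stand beside 7.84% of all genes that rose at 24 h and 4.52% that fell, and those of the translation factors and of ribosome biogenesis were near that background. Among other genes of the cytosolic ribosome, Fau (a ubiquitin-like fusion to a ribosomal protein) and Rack1 (a scaffold on the small subunit) had 24 h ratios of 0.23 and 0.16, and neither passed the test, although Fau did with the block (adjusted p = 0.030). Of 18 other mRNAs known for a terminal oligopyrimidine tract, 17 were above 0 at 24 h with a median of 0.17, and 2 rose. They were Gas5, a snoRNA host gene, at 0.57 ± 0.09 (adjusted p = 0.015 in limma), and Pabpc1, the poly(A)-binding protein, at 0.38 ± 0.09 (adjusted p = 0.048). Of 38 translation factors tested, 28 were above 0 with a median of 0.14, and 3 rose: Eif6, which keeps the subunits apart, at 0.58 ± 0.09, Eif4e2 at 0.51 ± 0.10 and Eef2k, the kinase that slows elongation, at 0.47 ± 0.09. Of 57 genes of ribosome biogenesis, 5 rose and 1 fell (Taf1d, of the polymerase I selectivity factor, at -0.49 ± 0.09, named after its value was seen), with a median of 0.10. Myc, a transcription factor that drives ribosome production, had the highest value at 1.27 ± 0.09. None of these lists had a member that passed the test at 6 h. With the block, 7 of the 18 other tract mRNAs, 8 of the 38 translation factors and 19 of the 57 biogenesis genes rose at 24 h, and 0, 2 and 3 fell, beside 20.5% and 19.3% of all genes. At 6 h the blocked fit called 2 biogenesis genes higher and 1 lower, beside 5.91% and 2.97% of all genes.

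The mTOR and S6 kinase pathway had no common direction at 24 h. Of 33 genes tested, 3 rose and 2 fell, with a median of 0.00. The 3 that rose were Ddit4 at 1.29 ± 0.09 and Sesn2 at 0.84 ± 0.10, which inhibit mTOR complex activity, and Eif4ebp1 at 1.17 ± 0.08, which blocks the cap-binding factor. The 2 that fell, named after their values were seen, were Ddit4l, a paralog of Ddit4 and also an inhibitor, at -0.74 ± 0.11, and Pdcd4, an inhibitor of translation initiation, at -0.40 ± 0.08. The mitochondrial ribosomal proteins, which form a separate ribosome, had a median of 0.00 at 24 h over 78 genes, with 38 above 0, 2 that rose (Mrps6 at 0.67 ± 0.11 and Mrps34 at 0.47 ± 0.09) and 1 that fell (Mrps25 at -0.38, named after its value was seen). Their median brightness was 12.6, and in members with a brightness of 12 to 14 the 24 h median was 0.23. With the block, 9 mTOR pathway genes rose and 3 fell at 24 h, and 6 mitochondrial ribosomal proteins rose and 6 fell. The shares of all genes were 20.5% higher and 19.3% lower. In the blocked fit of 6 h, 6 mTOR pathway genes were higher and 1 lower. Of the mitochondrial ribosomal proteins 1 was higher and 2 were lower, beside 5.91% and 2.97% of all genes. Lists were described by counts and medians only. Under plain median centring the all-gene median at 24 h moved to -0.09, and ratios in every list are relative to the scaling used.

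**Figure D4:**
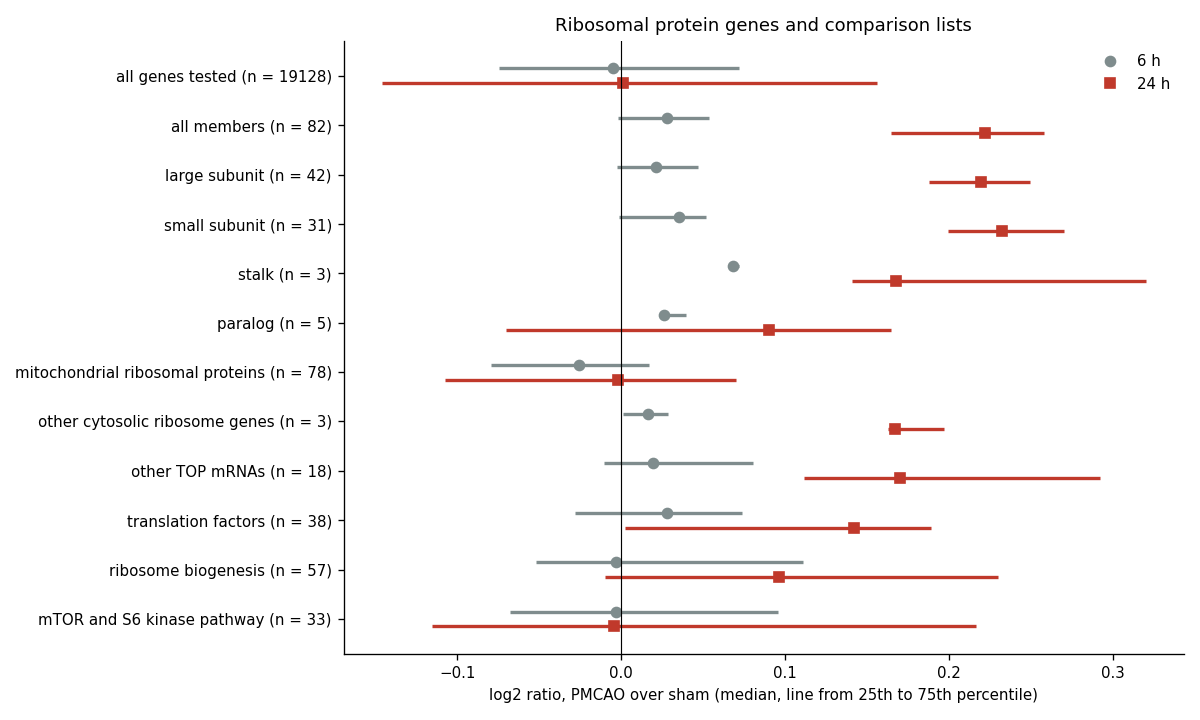
Median log2 ratio of PMCAO over sham (x axis; lines from the 25th to the 75th percentile over genes) for all genes tested, the ribosomal protein genes with their classes, and the comparison lists (y axis), at 6 h (grey circles) and 24 h (red squares). With loess, all classes are near 0 at 6 h, and at 24 h the member median is 0.22 and that of the mitochondrial ribosomal proteins 0.00. With plain median centring the member median falls to 0.036 at 24 h, and its change from 6 h turns to -0.094.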

How the data were processed

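RNA of PMCAO and sham mice was hybridised to 4 two-colour Agilent arrays. Per the file headers, the authors' scanner output came from Agilent Feature Extraction 9.5.3.1 and holds a Cy3 and a Cy5 intensity for each spot, outlier and background flags, a processed signal intensity that the software had background-subtracted and dye-normalized, and its log10 ratio. The deposited value table holds a signed score whose size equals the processed Cy5 over Cy3 ratio in 100% of probes; its sign is not explained and it was used only for this check. Here the mean signals were background-corrected with normexp (offset 50) and loess-normalized within each array with control spots at weight 0. Outlier spots were left out, and the sign of each log2 ratio was set so that PMCAO is the numerator, from the dyes in the labels. The brightest probe stood for a gene, and a gene was tested when in 1 or more of the 4 RNA groups the scanner software marked that probe well above background on both arrays. Of 41174 probes, 22951 were matched to RefSeq by accession, 6659 by symbol and 3109 by an older symbol, and 8455 kept the file's name; members kept their array names, of which all 82 had a current RefSeq entry. limma 3.58.1 (R 4.3.3) fitted a mean per time over the 4 arrays, with Benjamini-Hochberg adjustment over all 19128 genes, or over all probes where said. The number of arrays, 2 a time, limits the precision. Same-numbered arrays share the dye orientation, and their deviations correlated at 0.72, so blocked values are given beside the members and lists described whose calls they change. The alternatives were other backgrounds, scalings, filters and probe rules, each array left out, the block, and loess fitted without the member probes, chosen after seeing the data.

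The members and lists were chosen with earlier results of these data known. Members named are those past the test, the 4 highest and 4 lowest at each time, paralogs with parents, Rplp0, Rplp1, Rplp2, Rpsa, Rps6, Rpl13a and the 3 with the most different probes; of each list, the 2 genes with the smallest p at each time. Some items that this rule names are not reported here. Other members are named as examples, chosen after their values were seen.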

Additional observations from a re-analysis of the deposited data

How the results depend on the processing

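With the dye orientation as a replicate block, 56 members were higher and 2 lower at 24 h, and 5 were higher in the difference between times. The blocked fit left the members' log2 ratios as they were. With the processed signals and with plain median centring 0 members were called higher at 24 h, beside 4.81% and 0.068% of all genes. With the mean of a gene's probes 3 members were, beside 8.51% of all genes. The processed signals gave a 24 h member median of 0.23, with 76 members above 0. Plain median centring gave member medians of 0.12 (6 h), 0.036 (24 h) and -0.094 (difference), the last of opposite sign. The median difference was 0.18 with the mean of a gene's probes, and 0.21 with loess fitted without the member probes. Leaving out 1 array at a time gave 1 to 30 members higher and 0 to 4 lower at 24 h, and 0 to 10 higher and 0 to 2 lower in the difference. Members were called in the difference only in the refits without a 24 h array, which rest on 1 array at that time. Those refits also called a larger share of all genes in the difference than the full fit did, in both directions. Their counts are therefore no measure of the members alone. The member medians ranged from -0.043 to 0.071 at 6 h (below 0 without sample 1 of 6 h), from 0.14 to 0.25 at 24 h and from 0.11 to 0.28 in the difference. Rplp1 ranged from -0.55 to 0.78 at 24 h and from -0.63 to 0.70 for the difference, negative and past the test without sample 1 of 24 h. The cause of these changes was not tested. Counts at 6 h were 0 under every alternative run. Among the 24 named members, the block made 14 values newly pass the test at 24 h and 4 in the difference. The blocked shares of all genes were 20.5% higher and 19.3% lower at 24 h, and 8.81% and 7.99% in the difference. The mean of a gene's probes made 2 newly pass at 24 h, beside 8.51% of all genes higher and 4.67% lower. Rps27l no longer passed at 24 h with the processed signals and with plain median centring. Counting each named member once under each alternative, a value changed sign in 58 further cases. These values passed neither the unblocked test nor the test under that alternative. Depth of signal was no limit for these bright probes, but there were only 2 arrays a time, and in the 33 brightest members the arrays lay a median of 0.52 apart at 24 h.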

Other observations

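Ribosomal protein sequences also occur on the array under names that the rule does not match. Their 66 tested genes, found by the words ribosomal protein in the array's description, had a median log2 ratio of 0.04 at 6 h and 0.19 at 24 h, with 60 above 0 at 24 h. Among them, 3 rose and none fell, while 7.84% of all genes rose and 4.52% fell. The 3 that rose were on dim probes, with a brightness of 7.69, 8.25 and 9.12. The 47 described as similar to a ribosomal protein, mostly predicted loci, had a 24 h median of 0.23, from 0.03 to 0.60, and all 47 were above 0. Many of these probes may read the same transcripts as the members, so the values are no independent measurement. A dim probe for a fragment described as ribosomal protein L27A, listed as TC1514012, had 0.76 at 24 h (adjusted p = 0.0052 in limma). The bright probe of Rpl27a had -0.26 and its dim probe 0.12. Rpl34, listed under a clone name, had 0.13 and -0.33 at 6 h and 0.45 and -0.01 at 24 h on its bright probe, and 0.16 and 0.10 at 24 h on its other probe. Rpl39l, a paralog of Rpl39 that is also listed under a clone name, had 0.39 and -0.08 at 24 h on a dim probe.

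Members whose RefSeq promoter window has a terminal oligopyrimidine tract at the annotated start had a 24 h median of 0.20 over 13 genes, from -0.13 to 0.38. The 49 members with a window but no tract at that base had 0.22, from -0.26 to 0.52. Among these 49 is Rpl27a, whose annotated start lies inside a run of pyrimidines. Over the members, the 6 h and 24 h log2 ratios correlated at 0.35 across genes, which share arrays and dye orientation. The members lie on 19 chromosomes, with 14 on chromosome 7.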
